A study of Homo sapiens with 2 samples.

Results

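The RAB small GTPase genes were taken as the GENCODE protein-coding genes whose symbol is RAB followed by a number and at most 1 letter. This gave 62 of 19812 protein-coding genes. RAB7B was not analysed here. Chromatin from untreated HepG2 cells, an established human liver cancer line, was immunoprecipitated with a Proteintech antibody against ING5 and sequenced, with input DNA from HepG2 cells as the control. ING5 is a histone H3 reader and a subunit of histone acetyltransferase complexes, and the series asks which genes it binds. Each kind of library was sequenced once, so no value has a replicate, no group was tested against another, and the intervals below cover counting error only.

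RAB proteins are molecular switches that mark the membranes of a cell. In the GTP-bound form a RAB protein recruits effectors that bud, move, tether or fuse vesicles, and in the GDP-bound form it is drawn off the membrane by GDP dissociation inhibitors. Exchange factors turn RAB proteins on and GTPase-activating proteins turn them off. Some members are made in nearly every cell, while others serve neurons, glands, epithelia, blood cells or pigment cells. In this report 29 genes were classed as ubiquitous, 20 as tissue-restricted and 13 were left unclassified, from general knowledge of where they are expressed and not from any file. The classes were set with earlier results of these data known. Promoters of ALB, APOA1, HNF4A, FOXA1 and FOXA2, genes expressed in hepatocytes, had no ING5 peak, beside a promoter peak at 30.9% of all protein-coding genes. The peak list measures binding and not expression, so it could not check the labelled cell type.

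The promoters that follow run from 250 bases before to 50 bases after a RefSeq start, 5′ to 3′ on the strand of the gene (RefSeq, GRCh38.p14). The first set shows RAB31 and RAB7A, which had the most significant ING5 peaks of the family, and RAB22A, the close relative of RAB31 that had none. The printed windows of RAB31 and RAB7A do not reach these peaks, which begin 167 and 213 bp downstream of the start. Capitals mark every match, on either strand, to the motifs searched: GGGCGG (the GC box), CCGGAAG (the core of ETS factor sites), TGACGTCA (the cAMP response element), CACGTG (an E-box), the palindrome of NRF1, AAGATGG (found in YY1 sites) and TATAAA (the TATA box). Matches to different motifs did not overlap in these 3 promoters. RAB31 was read at chr18:9708051-9708350, RAB7A at chr3:128725933-128726232 and RAB22A at chr20:58309465-58309764, all on the plus strand.
RAB31: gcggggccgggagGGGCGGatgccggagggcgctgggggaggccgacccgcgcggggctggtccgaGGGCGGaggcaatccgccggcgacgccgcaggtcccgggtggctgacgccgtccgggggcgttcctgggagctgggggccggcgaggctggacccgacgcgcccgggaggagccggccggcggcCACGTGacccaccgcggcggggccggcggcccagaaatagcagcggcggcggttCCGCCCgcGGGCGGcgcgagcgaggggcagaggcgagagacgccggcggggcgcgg
RAB7A: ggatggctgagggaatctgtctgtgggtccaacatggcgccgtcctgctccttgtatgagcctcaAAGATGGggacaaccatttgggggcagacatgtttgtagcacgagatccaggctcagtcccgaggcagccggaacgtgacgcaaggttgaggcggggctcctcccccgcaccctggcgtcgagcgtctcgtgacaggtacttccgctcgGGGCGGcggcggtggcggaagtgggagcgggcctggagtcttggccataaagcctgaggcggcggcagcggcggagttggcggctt
RAB22A: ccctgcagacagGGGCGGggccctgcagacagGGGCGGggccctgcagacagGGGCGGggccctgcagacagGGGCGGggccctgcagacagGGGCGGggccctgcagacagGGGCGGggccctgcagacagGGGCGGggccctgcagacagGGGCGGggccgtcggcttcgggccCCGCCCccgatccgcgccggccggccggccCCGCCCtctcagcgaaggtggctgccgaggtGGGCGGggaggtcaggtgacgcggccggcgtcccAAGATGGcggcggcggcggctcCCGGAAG
RAB31 had 4 matches to GGGCGG and 1 to CACGTG, RAB7A 1 to GGGCGG and 1 to AAGATGG. RAB22A, which had no peak, had 11 to GGGCGG, 1 to CCGGAAG and 1 to AAGATGG. A match is a stretch of letters and not a shown binding site.

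The second set shows where ING5 peaks reached into a RefSeq promoter window, and capitals here mark the bases inside a peak. The RAB27A window belongs to an alternative start at chr15:55319074-55319373 on the minus strand. The RAB23 window belongs to an alternative start at chr6:57221413-57221712 on the minus strand. The RAB24 window lies at chr5:177303670-177303969 on the minus strand, and runs past the first starts of PRELID1, a gene on the other strand.
RAB27A: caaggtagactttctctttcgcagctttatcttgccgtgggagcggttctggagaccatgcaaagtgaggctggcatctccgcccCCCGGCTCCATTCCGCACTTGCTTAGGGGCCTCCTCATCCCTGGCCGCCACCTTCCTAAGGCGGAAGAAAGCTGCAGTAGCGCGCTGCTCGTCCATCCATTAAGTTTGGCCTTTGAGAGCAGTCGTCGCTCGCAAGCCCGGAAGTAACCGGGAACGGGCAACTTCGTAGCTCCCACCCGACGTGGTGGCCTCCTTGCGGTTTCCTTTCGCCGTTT
RAB23: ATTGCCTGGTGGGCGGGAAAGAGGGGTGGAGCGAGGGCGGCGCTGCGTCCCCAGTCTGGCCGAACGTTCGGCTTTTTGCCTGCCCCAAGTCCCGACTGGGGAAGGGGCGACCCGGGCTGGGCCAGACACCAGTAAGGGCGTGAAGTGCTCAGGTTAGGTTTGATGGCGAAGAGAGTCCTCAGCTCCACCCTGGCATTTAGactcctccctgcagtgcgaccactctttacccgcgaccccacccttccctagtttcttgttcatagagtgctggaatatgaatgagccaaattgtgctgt
RAB24: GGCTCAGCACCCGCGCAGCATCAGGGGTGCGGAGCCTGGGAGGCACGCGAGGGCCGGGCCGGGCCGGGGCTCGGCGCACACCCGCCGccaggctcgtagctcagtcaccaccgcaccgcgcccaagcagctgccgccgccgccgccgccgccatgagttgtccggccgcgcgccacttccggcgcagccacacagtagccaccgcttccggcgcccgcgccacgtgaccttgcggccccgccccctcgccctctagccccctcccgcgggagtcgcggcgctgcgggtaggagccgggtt
The peaks covered 215, 200 and 87 of the 300 bases in RAB27A, RAB23 and RAB24. In RAB27A the covered part holds the start itself. In RAB23 and RAB24 it lies at the upstream end of the window, which for RAB24 is already inside PRELID1, and the strongest RAB24 peak begins beyond the downstream end.

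An ING5 promoter peak, defined by a summit within 1000 bp of any annotated transcription start of the gene, was found at 28 of the 62 RAB genes (45.2%, exact binomial 95% interval 32.5 to 58.3). Over all protein-coding genes the share was 30.9%. Of the 28 genes, 23 had 1 promoter peak, 4 had 2 (RAB24, RAB26, RAB34 and RAB40C) and RAB10 had 3. No peak in the list had fewer than 7 fragments at its summit, so a RAB promoter without a peak may still hold weaker occupancy that was not detectable at this depth.

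Ubiquitous members carried most of the peaks. A promoter peak was found at 18 of 29 ubiquitous genes (62.1%, 42.3 to 79.3), at 4 of 20 tissue-restricted genes (20%, 5.73 to 43.7) and at 6 of 13 unclassified genes (46.2%, 19.2 to 74.9). The ubiquitous share lay above the 30.9% of all genes and the tissue-restricted share below it. The intervals of these 2 classes overlapped slightly. They are no test of a difference, because genes are not replicates. Ubiquitous genes had a median of 6 annotated starts and tissue-restricted genes 3, so more sequence was searched at the former. With the canonical start of each gene alone, which gives every gene a window of the same size, the counts were 18 of 29 and 3 of 20, beside 27.9% of all genes.

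**Figure D1:**
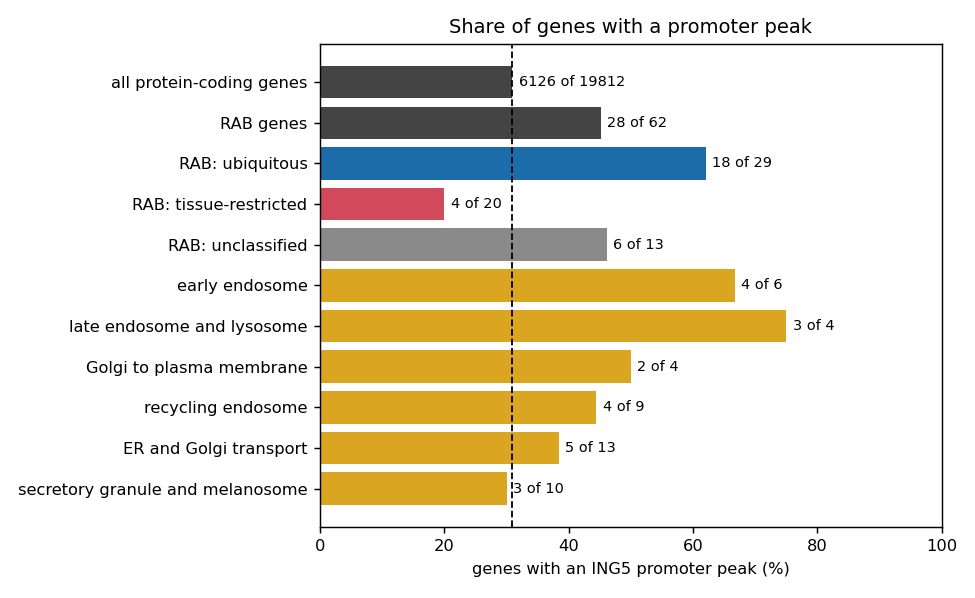
Share of genes with an ING5 promoter peak (x axis, percent) for all protein-coding genes, the RAB genes, their 3 breadth classes and 6 groups by membrane compartment; the dashed line is the share of all protein-coding genes. The ubiquitous bar stands at 62.1% and the tissue-restricted bar at 20%, on either side of the 30.9% of all genes.

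The strongest ubiquitous peaks lay at RAB31 and RAB7A. At RAB31, which acts between the trans-Golgi network and endosomes, the peak at chr18:9708468-9709357 had 21 fragments at its summit (exact Poisson 95% interval 13 to 32.1). This was 11.9-fold over local background by the peak caller's own ratio. At RAB7A, which directs late endosomes to fuse with lysosomes, the peak at chr3:128726396-128726954 also had 21 fragments (13 to 32.1) and 11.6-fold enrichment. By significance these peaks ranked 465 and 526 among the 8608 of the list, within the 1000 most significant but not at its very top.

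Next came RAB24 and RAB40C, with 18 fragments (10.7 to 28.4) and 10.3-fold enrichment each. RAB24 takes part in autophagy, and RAB40C joins a ubiquitin ligase through its SOCS box. The RAB24 peak at chr5:177303266-177303660 had its summit in exon 1 of RAB24. A second peak of 12 fragments (6.20 to 20.96) lay on the other side of the start, with its summit 357 bp downstream of the PRELID1 start. The stronger RAB40C peak, at chr16:588429-588999, had its summit at -1195 bp from the canonical start and at -486 bp from an alternative start, where minus is upstream. The weaker one, of 11 fragments (5.49 to 19.7), lay 541 bp downstream of the canonical start. Both genes thus had peaks on both sides of the canonical start.

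RAB10, which carries cargo such as glucose transporters to the plasma membrane, had peaks of 11, 16 and 12 fragments at -786, 352 and 862 bp from its canonical start. The middle peak covered the start itself and reached 9.17-fold. RAB12, a regulator of receptor breakdown, and RAB5B, which drives early endosome fusion, each had 15 fragments (8.40 to 24.7) and 8.63-fold enrichment. The 2 summits lay far apart relative to the start: that of RAB12 was 884 bp downstream and that of RAB5B 132 bp downstream, the ends of the range of downstream summits within 1000 bp of a canonical start.

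The middle of the ubiquitous class held RAB14, RAB18, RAB11A, RAB21, RAB6A and RAB33B. RAB14 works between the Golgi and endosomes and RAB18 at the endoplasmic reticulum and lipid droplets; both had 17 fragments (9.90 to 27.2). Their enrichment was lower than that of RAB24, at 7.88-fold and 6.25-fold, because the ratio is taken over local backgrounds of 1.28 and 1.88 fragments in place of the genome-wide 0.853. RAB11A, the recycling endosome regulator, had 14 fragments (7.65 to 23.5) in a peak of 1151 bp. RAB21, an endocytic regulator of integrins, RAB6A, which acts in retrograde Golgi transport, and RAB33B, a Golgi and autophagy factor, had 13 fragments each (6.92 to 22.2).

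The lowest ubiquitous peaks were those of RAB9A, RAB35, RAB5C, RAB2A and RAB8A. RAB9A (return from late endosomes to the Golgi), RAB35 (fast recycling) and RAB5C (early endosomes) had 11 fragments each (5.49 to 19.7). RAB2A (transport between endoplasmic reticulum and Golgi) and RAB8A (exocytosis and cilia) had 10 each (4.80 to 18.4). The RAB5C summit lay 368 bp downstream of a RAB5C start and 320 bp downstream of a start of an overlapping protein-coding gene annotated as ENSG00000267261. It lay at -4 bp from the start of the noncoding antisense gene RAB5C-AS1, which is inside the peak. Given only to the protein-coding gene with the nearest start, the peak belonged to ENSG00000267261 and RAB5C had none. All 5 intervals reached below the 7 fragments that is the lowest pileup in the list, as did those of RAB21, RAB6A and RAB33B. Over all 28 best RAB peaks, the interval lay wholly above 7 fragments for 15.

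Not every ubiquitous gene had a peak. The 11 ubiquitous genes without a promoter peak were RAB1A, RAB1B, RAB2B, RAB4A, RAB4B, RAB5A, RAB8B, RAB11B, RAB13, RAB22A and RAB28. They include both RAB1 genes, which carry the bulk of traffic from the endoplasmic reticulum to the Golgi, and both RAB4 genes of fast recycling. For 10 of these 11 the nearest summit lay over 20000 bp from any start of the gene, and for RAB13 it lay 7828 bp away. Such distances were counted for RAB genes alone, so no share over all genes without a peak stands beside them.

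Among tissue-restricted genes, peaks were found at RAB26, RAB17, RAB3A and RAB27A. RAB26, a secretory granule and synaptic vesicle factor, had the highest pileup of the family, with 23 fragments (14.6 to 34.5) and 10.7-fold enrichment. This peak, at chr16:2152767-2155318, was 2552 bp wide and lay far from the main promoter: its summit was in exon 8 of 9, 4590 bp downstream of the canonical start and 173 bp downstream of an alternative internal start. Its far end lay 41 bp from a start of the noncoding gene SNHG19 and 380 bp from a start of TRAF7. At the canonical promoter itself RAB26 had a separate peak of 13 fragments (6.92 to 22.2) and 7.55-fold enrichment, 458 bp downstream.

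The other 3 tissue-restricted peaks were the weakest of that class. RAB17, an epithelial transcytosis factor, and RAB3A, the synaptic vesicle RAB, had 9 fragments each (4.12 to 17.1). RAB27A, which moves melanosomes and lytic granules, had 7 (2.81 to 14.4), the lowest of all 28. Its summit lay at -29314 bp from the canonical RAB27A start, at -14 bp from an alternative start and at -4 bp from the start of PIGBOS1. The start of PIGB, 109 bp from the RAB27A alternative start on the other strand, also lay inside the peak. Given only to the gene with the nearest start, the peak belonged to PIGBOS1 and RAB27A had none.

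No promoter peak was found at the other 16 tissue-restricted genes. These were RAB3B, RAB3C and RAB3D of regulated secretion, RAB6B, RAB9B, RAB15, RAB33A and RAB39B of the nervous system, and RAB25 of epithelia. The rest were RAB27B, RAB37 and RAB38 of secretory granules and melanosomes, RAB44 of blood cells, and RAB6C, RAB40A and RAB41. The nearest summit was over 20000 bp away for 14 of the 16, with a median of 124034 bp, against a median of 80096 bp for the 11 ubiquitous genes without a peak. Here too the distances of other genes without a peak were not counted.

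Of the unclassified genes, RAB20, RAB42, RAB34, RAB23, RAB29 and RAB43 had a peak. RAB20, an endocytic and phagosomal factor, had 17 fragments (9.90 to 27.2) and 9.71-fold enrichment in intron 1. RAB42, RAB34 and RAB23 had 16 each (9.15 to 25.98), RAB29 13 (6.92 to 22.2) and RAB43 9 (4.12 to 17.1). RAB34 and RAB23 act at the primary cilium, where RAB23 restrains Hedgehog signalling, RAB29 works at the Golgi and lysosome, and RAB43 at the Golgi. RAB6D, RAB19, RAB30, RAB32, RAB36, RAB39A and RAB40B had none.

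**Figure D2:**
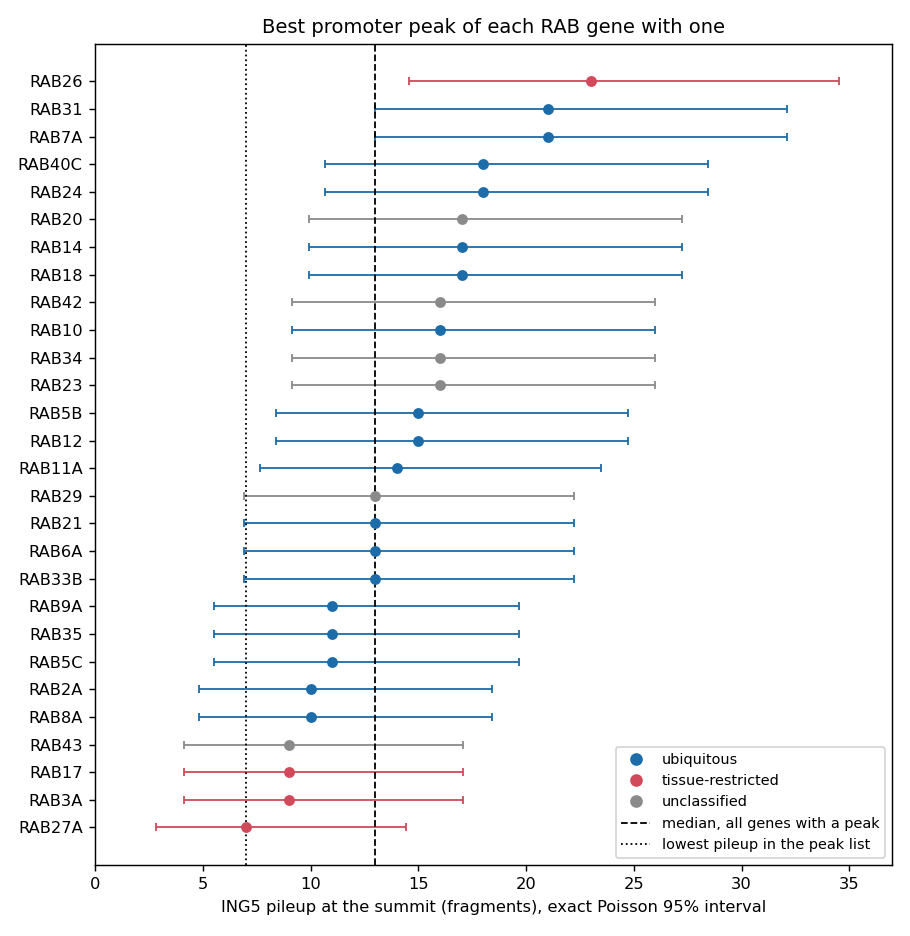
Pileup at the summit of the best promoter peak (x axis, fragments) for the 28 RAB genes with a peak, coloured by breadth class; bars are exact Poisson 95% intervals, the dashed line is the median over all genes with a peak and the dotted line the lowest pileup in the list. RAB26 stands highest at 23 fragments and RAB27A lowest at 7, and most intervals overlap.

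Over the 28 genes the pileup of the best peak ran from 7 to 23 fragments with a median of 14.5, beside a median of 13 over the 6126 genes with a promoter peak. The median enrichment was 7.28-fold, beside 7.01-fold. Ubiquitous genes had a median of 14.5 fragments (10 to 21), the 4 tissue-restricted genes 9 (7 to 23) and unclassified genes 16 (9 to 17). Of the 378 pairs of best peaks, the Poisson intervals failed to overlap in 1, that of RAB26 and RAB27A. The intervals of every other pair overlapped. For 12 of 28 genes (42.9%) the best peak stood over a local background more than 0.001 fragments above the genome-wide one, as it did for 38.4% of all genes with a peak.

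RAB summits lay downstream of the start. Measured to the nearest annotated start of the gene, 23 of 28 best summits were downstream (82.1%), beside 71.4% over all genes with a peak. The exceptions were RAB40C, RAB23, RAB11A, RAB29 and RAB27A, at -486, -234, -77, -27 and -14 bp. The median offset was 215 bp for all RAB genes and for ubiquitous genes, and 261 bp for the 4 tissue-restricted genes, beside 164 bp over all genes with a peak. The nearest start was not the canonical one for 23 of the 28 (82.1%), as for 77.9% of all genes with a peak.

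Measured to the canonical start, the pattern was tighter. A peak lay within 1000 bp of it at 27 RAB genes, each counted once by its most significant such peak. Of those summits 26 (96.3%) were downstream, between 132 and 884 bp, with the exception of RAB35 at -649 bp. In the same count over all genes, 82.6% were downstream. RAB40C and RAB26 entered with peaks of 11 and 13 fragments, since their best peaks, of 18 and 23, lay beyond this limit. Upstream peaks of RAB10 at -786 bp and RAB24 at -493 bp were not counted, as each gene had a more significant peak downstream. The median offset was 423 bp at RAB genes and 339 bp over all genes. Between 300 and 600 bp downstream lay 19 of 27 RAB summits (70.4%), beside 36.4% over all genes; this range was chosen after the offsets were seen. The medians of ubiquitous and tissue-restricted genes, 418 and 423 bp, were close to each other, the latter over 3 genes.

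**Figure D3:**
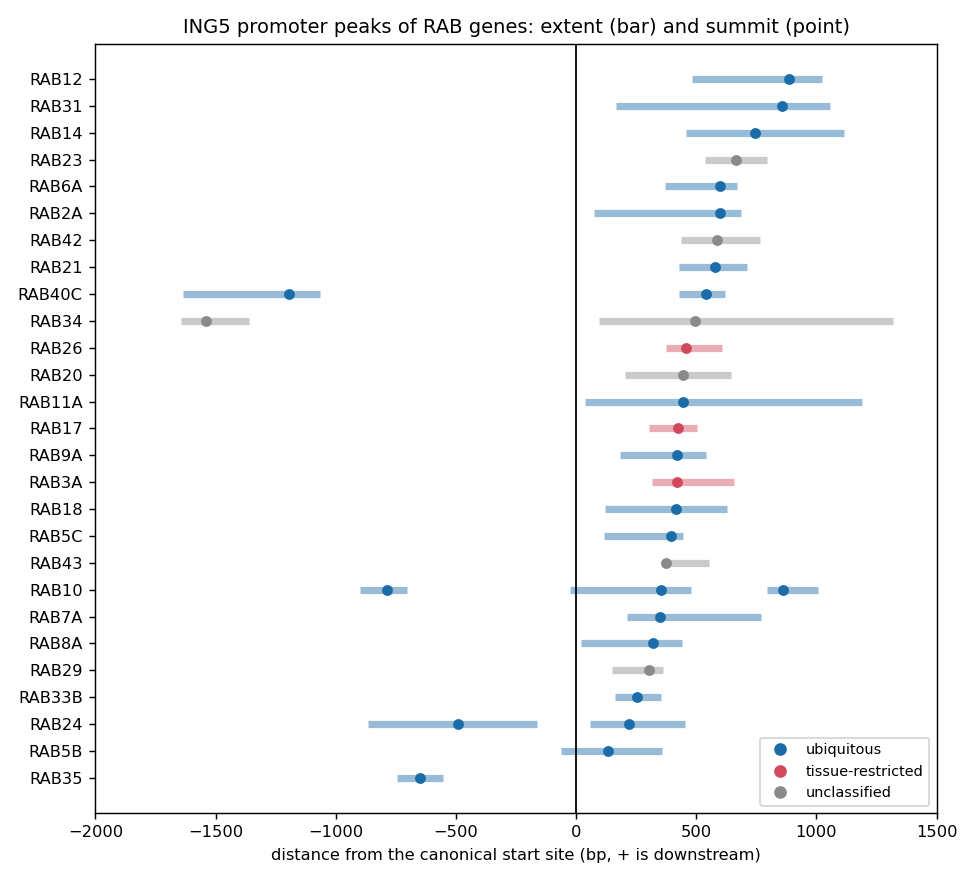
ING5 promoter peaks of 27 RAB genes drawn from the canonical start (x axis, bp, downstream to the right); bars show the extent of each peak and points its summit, coloured by breadth class, and RAB27A and the internal RAB26 peak lie outside the range drawn. Every gene shown except RAB35 has a summit to the right of the start, at 132 to 884 bp.

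In the canonical transcripts most of these summits fell in the first intron. Of the 28 best summits 19 lay in intron 1, 5 in exon 1, 1 in exon 8 and 3 upstream of the transcript. The 5 in exon 1 were those of RAB24, RAB10, RAB34, RAB33B and RAB43, and the 3 upstream those of RAB40C, RAB35 and RAB27A. For 6 best peaks a noncoding gene but no other protein-coding gene had a start within 1000 bp of the summit: RAB17, RAB29, RAB2A, RAB33B, RAB35 and RAB6A. Neither this count nor the placement in introns and exons was made over all genes with a peak. Both describe these RAB genes alone.

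The RAB subfamilies group the closest relatives. Of 17 subfamilies 12 had some members with a promoter peak and some without, 4 had none (RAB1, RAB4, RAB32 with RAB38, and RAB39), and in the RAB7 subfamily only RAB7A was measured. No share of mixed groups was computed for unrelated genes, so the count describes these subfamilies alone. RAB5B and RAB5C had a peak while RAB5A, the third early endosome regulator, had none; the nearest summit to RAB5A was 2204739 bp away. RAB11A had a peak, while RAB11B and the epithelial RAB25 had none. In the subfamilies that join ubiquitous and tissue-restricted genes, RAB6, RAB9, RAB11 with RAB25, RAB33 and RAB40, the gene with the peak was a ubiquitous one: RAB6A, RAB9A, RAB11A, RAB33B and RAB40C. Subfamilies within 1 breadth class were split too. Among ubiquitous genes RAB2A, RAB8A and RAB31 had a peak and RAB2B, RAB8B and RAB22A none. Among tissue-restricted genes RAB3A, RAB26 and RAB27A had a peak, while RAB3B, RAB3C, RAB3D, RAB37 and RAB27B had none.

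**Figure D4:**
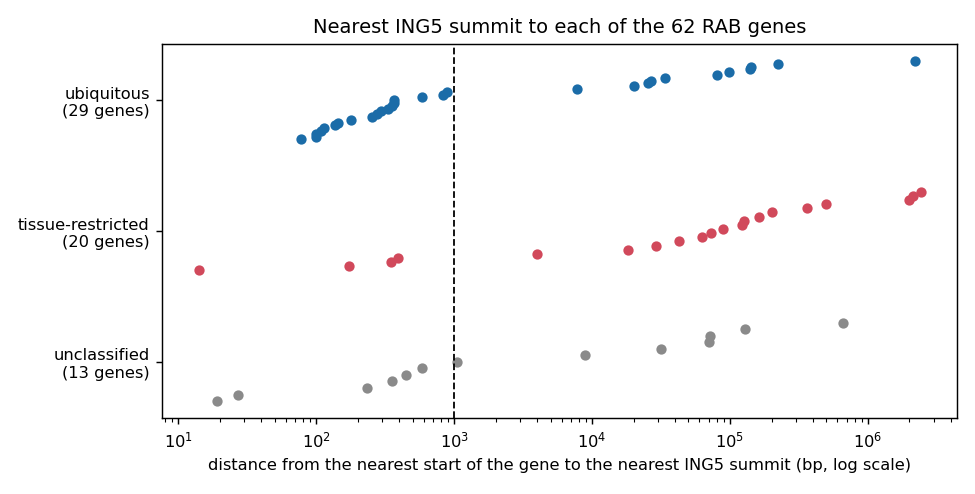
Distance from each RAB gene's nearest annotated start to the nearest ING5 summit (x axis, bp, log scale), 1 point a gene, by breadth class; the dashed line marks the 1000 bp window. No gene lies just beyond the window except RAB30 at 1052 bp, and most genes without a promoter peak lie over 20000 bp from any summit.

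Few members lay near the edge of the window. The farthest promoter summits inside it were those of RAB12 at 884 bp and a second RAB34 peak at -978 bp, which lay nearer to the start of RPL23A. Just outside it RAB30, a Golgi RAB, had a summit at -1052 bp with 12 fragments and 7.01-fold enrichment. Of the 34 genes without a promoter peak, 29 had no summit within 20000 bp. The same share over all protein-coding genes without a promoter peak was not computed, so this count describes the RAB genes alone.

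By membrane compartment, early endosomes and late endosomes had the larger shares. A promoter peak was found at 4 of 6 early endosome genes (RAB31, RAB5B, RAB21 and RAB5C), 3 of 4 genes of late endosomes and lysosomes (RAB7A, RAB29 and RAB9A) and 4 of 9 of recycling endosomes (RAB14, RAB11A, RAB35 and RAB17). It was found at 5 of 13 genes of endoplasmic reticulum and Golgi transport (38.5%) and 3 of 10 of secretory granules and melanosomes (30%). These 2 shares lay near that of all genes. Of the genes of transport from the Golgi to the plasma membrane, 2 of 4 had a peak. Groups of this size move by many percentage points with 1 gene. The early endosome genes are all classed as ubiquitous, and the secretory group consists almost wholly of tissue-restricted genes. In these groups compartment and breadth cannot be told apart.

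Some RAB genes share their promoter region with a divergent neighbour. A start of another protein-coding gene on the other strand within 1000 bp of any start of the gene was found at 10 RAB genes. Of these 4 had a promoter peak (40%): RAB11A with DENND4A, RAB24 with PRELID1, RAB27A with PIGB and RAB5B with PMEL. No DENND4A start lay within 1000 bp of the RAB11A summit, whereas a start of the named neighbour did for RAB24, RAB27A and RAB5B. The 6 such genes without a peak were RAB2B with TOX4, RAB3D with CCDC159, RAB5A with EFHB, RAB19 with SLC37A3, RAB36 with RSPH14 and RAB39A with SLC35F2. Among the 52 RAB genes with no such neighbour 24 had a peak (46.2%). Over all protein-coding genes the shares were 52.0% with a divergent neighbour and 26.4% without. Whether the RAB genes differ from the others in this was not tested.

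A RefSeq promoter was matched for 49 of the 62 RAB genes (79.0%), so a comparison of promoter sequence over the whole family is void. The same holds for tissue-restricted genes, with 13 of 20. Within the ubiquitous class a sequence was at hand for 15 of 18 genes with a peak and 10 of 11 without. The CpG content, as the observed over expected number of CG dinucleotides in 300 bases, had a median of 0.861 (0.651 to 1.10) at the 15 and 0.934 (0.487 to 1.02) at the 10. The ranges largely overlapped. For all genes with a peak the median was 0.882, over 5035 of 6126 with a sequence.

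The motif GGGCGG was present in 14 of the 15 ubiquitous promoters with a peak and in all 10 of those without, beside 61.9% of the 15208 promoters of protein-coding genes in the table. The table covers 76.8% of protein-coding genes, so this share and those in parentheses below describe the listed promoters and not all genes. CCGGAAG was present in 4 of 15 and 3 of 10 (14.8% of all), AAGATGG in 3 and 4 (6.56%) and CACGTG in 3 and 2 (8.88%). The NRF1 palindrome was found at 1 of the 15, RAB18, and at none of the 10 (1.79%), and TGACGTCA and TATAAA at none of either (2.74% and 9.36%). None of the motifs separated ubiquitous promoters with a peak from those without in this window, which for most of those with a peak does not reach the peak.

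Promoter peaks were also counted at the machinery that loads and switches RAB proteins, beside the 30.9% of all protein-coding genes. Of 8 genes for prenylation and membrane cycling 4 had a promoter peak (50%), led by CHML, an escort protein for prenylation, with 35 fragments (24.4 to 48.7) and GDI2, a GDP dissociation inhibitor, with 18 (10.7 to 28.4). Of 34 exchange factors 12 had a peak (35.3%), led by DENND5B with 30 fragments (20.2 to 42.8) and DENND4B with 19. Of 34 GTPase-activating proteins 17 had a peak (50%), led by SGSM2 with 20 and TBC1D24 with 19. Of 36 effectors 9 had a peak (25.0%), led by RUFY1 with 16 and APPL1, both endosomal, with 18. The shares of exchange factors and effectors lay close to that of all genes. The pileups of CHML and DENND5B were higher in value than that of every RAB gene, though their intervals overlapped that of RAB26.

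Other small GTPase families gave a frame for the RAB share of 45.2%. A promoter peak was found at 16 of 28 ARF, ARL and SAR genes (57.1%), led by ARF1 with 30 fragments, and at 6 of 27 RAS, RAP and RAL genes (22.2%), led by RAP2B with 22. The highest RAB pileup, 23 fragments at RAB26, lay below that of ARF1 (20.2 to 42.8), with overlapping intervals. By enrichment ARF1, at 10.8-fold over a local background of 1.88 fragments, was close to RAB26 at 10.7-fold. It lay below RAB31 at 11.9-fold and RAB7A at 11.6-fold. Differences between families were not tested.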

How the data were processed

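ING5 ChIP DNA and input DNA from HepG2 cells gave 1 library each, of 12416160 and 9915170 fragments per the file headers. MACS2 2.1.1.20160309 called peaks on the ChIP library against input at a p cutoff of 1e-05 in paired-end mode, also per the file headers. The submitters' processing notes name fastp 0.19.6, Bowtie2 and deepTools. The deposited pileup is a coverage signal in fragments, the deposited fold enrichment is a ratio with a pseudocount of 1 on both sides, and the deposited −log10 p ranked peaks. All are the authors' values for single peaks.

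The labels name GRCh37, but of 8589 chromosomal summits 6527 were within 1000 bp of the GRCh38 position of a protein-coding start and 1175 of a GRCh37 position, so coordinates were read as GRCh38. Starts came from the original locations recorded in GENCODE 44. The best peak of a gene had the highest −log10 p. Local background was recovered from pileup and fold.

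Members, breadth classes and gene lists were chosen with earlier results of these data known. All 62 members were accounted for, and in other lists the 2 most significant genes were named. Printed promoters were those of the 3 most significant members, but RAB26 has none in the table. The planned comparison of paralogue proteins was not run, so the relative of RAB31 was shown in its place, and RAB27A, RAB23 and RAB24 were added after their peaks were seen. Gene assignment was tested on simulated data. The result of 1 gene list is not reported here. Python 3.11.15, pandas 2.3.3 and scipy 1.17.1 were used.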

Additional observations from a re-analysis of the deposited data

How the results depend on the processing

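The order of the breadth classes, ubiquitous above tissue-restricted, held under 8 alternatives listed in advance and 2 chosen after seeing the data (starts of protein-coding transcripts alone, and each peak given only to the gene with the nearest start). All of these reuse the same classes and the same peak list, so they are not independent checks. The RAB share of 45.2% was 19.4% with a window of 200 bp (13.5% of all genes). It was 32.3% and 30.6% with the parts of the peaks higher in −log10 p or in fold (19.3% and 19.4%). With the 1000 most significant peaks it was 8.06% (4.8%). It was 27.4% when only peaks whose local background was at the genome-wide level were kept (19.9%). Each of these settings keeps fewer peaks or a smaller window by construction. The ubiquitous share was 27.6%, 13.8% and 34.5% with the narrow window, the 1000 most significant peaks and the genome-wide background. The tissue-restricted share was 5%, that is RAB26 alone, with either stronger part and with the 1000 most significant peaks. With those 1000, 5 RAB genes remained, with a median of 21 fragments and 10.7-fold enrichment. The share of best summits downstream of the nearest start, 82.1%, was 75% with the window of 200 bp and 75.9% with a window of 3000 bp. With canonical starts alone and 1 peak counted a gene, it was 96.3%. No paired analysis was possible because each group had 1 library, and no library could be left out.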

Other observations

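Among the 62 RAB genes 1 (1.61%) had a peak in its gene body beyond the promoter window, beside 987 of 18946 protein-coding genes with RefSeq coordinates (5.21%). This count was added after seeing the data. The median gene length was 32297 bp for RAB genes and 25764 bp over all. The peak lay in RAB20 at chr13:110525737-110525991, 35844 bp downstream of the start, with 10 fragments and 5.94-fold enrichment.

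The promoter of RAB22A, which had no peak, holds a tandem repeat: 8 of its 11 GGGCGG matches lie exactly 20 bases apart.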
